A study of Homo sapiens with 12 samples.

Results

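The comparison described here sets HMEC-1 endothelial cells given oncostatin M together with PF9363 against untreated control cells of the same line. It compares 6 of the series' 12 libraries, the 3 of the PF9363 group and the 3 of the control group (CT), while the spread behind the p-values came from all 12. Members are the 15115 of 60623 genes in the table that reached 1 TPM in 3 or more of these 6 libraries. TPM is a level scaled for transcript length and to a fixed total per library. HMEC-1 cells are human dermal microvascular endothelial cells that were immortalised. PF9363 cells received 30 µg/mL PF9363, named in the labels as an inhibitor of the acetyltransferases KAT6A and KAT6B, with recombinant oncostatin M for 48 h. Cells of the OSM group, given here for reference, received oncostatin M alone, and CT cells received fresh complete medium. The cytokine dose reads 10 ng/mL in the protocol and 10 µg/mL in the sample labels, a discrepancy that the files leave unresolved. All groups grew in medium with epidermal growth factor, hydrocortisone and serum. No cells received PF9363 without the cytokine and no vehicle is named, so the values give the net state under both agents. Whether the 3 replicates of a group were separate cultures is not stated, so p-values here reflect library-to-library spread, which may be technical.

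Oncostatin M is a cytokine of the interleukin-6 family. It binds OSMR or LIFR together with the shared chain gp130 (gene IL6ST), and the JAK kinases on these chains phosphorylate STAT3, which enters the nucleus and switches on acute phase genes and the pathway's own feedback inhibitor SOCS3. In endothelium the cytokine is known for inducing chemokines and adhesion molecules. KAT6A and KAT6B are histone acetyltransferases of the MYST family that work in a complex with BRPF1, ING4 or ING5 and MEAF6, acetylate histone H3 and are known for keeping HOX genes active during development.

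Depth, recovered as whole reads from the TPM values, was 15.7 to 16.5 M reads (1 M being 1e6) in PF9363 and 16.8 to 19.6 M reads in CT. A library stood apart in each group. PF9363 replicate 3 lay apart from its group by a mean absolute log2 difference of 0.38 and 0.46 per gene, against 0.23 between those. CT replicate 1 differed from its group by 0.49 and 0.60, against 0.21. The level of a gene also depended on its GC content to an extent that differed between the libraries. Set against the 12-library mean, the log2 level changed by -0.16 to 0.14 per 10 points of GC content in PF9363 and by 0.25 to 0.65 in CT. Changes computed after removal of this trend and of the one on transcript length are called corrected changes below. Mitochondrial ribosomal RNA took 3.72% to 4.07% of the TPM in PF9363 and 1.48% to 1.60% in CT. With all mitochondrially encoded genes removed before scaling 4677 genes were called higher and 4360 lower, against 4546 and 4630 with them.

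Of 11 endothelial markers, all tested, 5 were called higher (PECAM1, TEK, KDR, ERG and VWF), 4 lower (CDH5, EMCN, CLDN5 and EGFL7) and 2 neither way (TIE1 and ESAM). EMCN fell to under 1 TPM in every PF9363 library, and the other 10 stayed above 1 TPM in all 6 libraries. Over all 15115 tested genes 30.1% were called higher and 30.6% lower, and the marker counts here are to be read against these shares. PECAM1, an adhesion molecule of endothelial junctions, stood at 133, 122 and 106 TPM in PF9363 and 84.4, 99.8 and 101 TPM in CT, and ERG, an endothelial transcription factor, at 89.2, 81.9 and 64.2 TPM in PF9363 and 24.8, 45.6 and 43.4 TPM in CT (log2 change 1.06, corrected 0.70). Of the lists for other cells, the epithelial one summed to 2988 to 4243 TPM in PF9363 and 1172 to 1604 TPM in CT, mostly KRT18, and of 7 tested members 3 were higher and 3 lower. Its part in the results was not tested. Of 16 leukocyte markers 2 were tested and called higher (CD14 and FCER1G), and the list summed to 51.8 to 68.3 TPM in PF9363 and 6.26 to 8.85 TPM in CT, most of it CD14. FCER1G lost its call with a pseudocount of 0.1. The pan-leukocyte gene PTPRC stood at 0 to 0.0207 TPM in PF9363 and 0 to 0.0778 TPM in CT. Listed leukocyte markers at 0 in every library of a group numbered 2 in PF9363 (MS4A1 and SPI1), 5 in OSM and 3 in CT. Of 15 fibroblast and mural markers 7 were tested. This list summed to 36.8 to 43.1 TPM in PF9363 and 37.5 to 45.8 TPM in CT. Within it 3 were higher, THY1 by 2.14, and 3 lower, CSPG4 by 1.39 and PDGFRB by 1.12 among them, while LUM, KCNJ8 and ABCC9 were at 0 in all 6 libraries. The markers given for the comparison moved as a pair: SOCS3 and IFITM1, both described below, were higher in every PF9363 library than in any CT library.

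The PF9363 and CT libraries differed broadly, and how much of this came from the agents was not tested. With limma, 9176 of 15115 genes passed an adjusted p under 0.05 (Benjamini-Hochberg) and are called, which is 60.7% of those tested. Called higher were 4546 genes (30.1%) and called lower 4630 (30.6%). At least 2-fold higher were 2214 (14.6%) and at least 2-fold lower 1827 (12.1%). These calls pool the spread of all 12 libraries, those of OSM and of a group given oncostatin M with CBP300 included. Mean absolute log2 differences within a group were 0.16 to 0.21 in OSM and 0.14 to 0.17 in CBP300, against 0.23 to 0.46 in PF9363 and 0.21 to 0.60 in CT. Fitted to the 6 compared libraries alone, 2843 genes were called higher and 3623 lower. All changes are on the log2(TPM + 1) scale, which understates the change of low genes. The PF9363 and CT libraries did not overlap for 8537 genes (56.5%), with PF9363 above CT for 26.3% and below it for 30.1% of all genes. The median change over all tested genes was 0.05. Genes at least 2-fold higher had a median GC content of 45.4% and those at least 2-fold lower 55.8%, against 49.98% over all tested genes. With the GC and length trend removed, 3899 of 4527 genes called higher and 3724 of 4603 called lower remained so, and 15 and 23 turned to the opposite call. Without CT replicate 1, 1444 genes were at least 2-fold higher in place of 2214. The share of members called in each gene list below is to be read against the 30.1% and 30.6% over all genes. A gene could pass the filter through 1 group alone, and such members lean towards a call in that group's direction. For corrected values the shares over all genes were 33.1% higher and 32.9% lower.

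**Figure D1:**
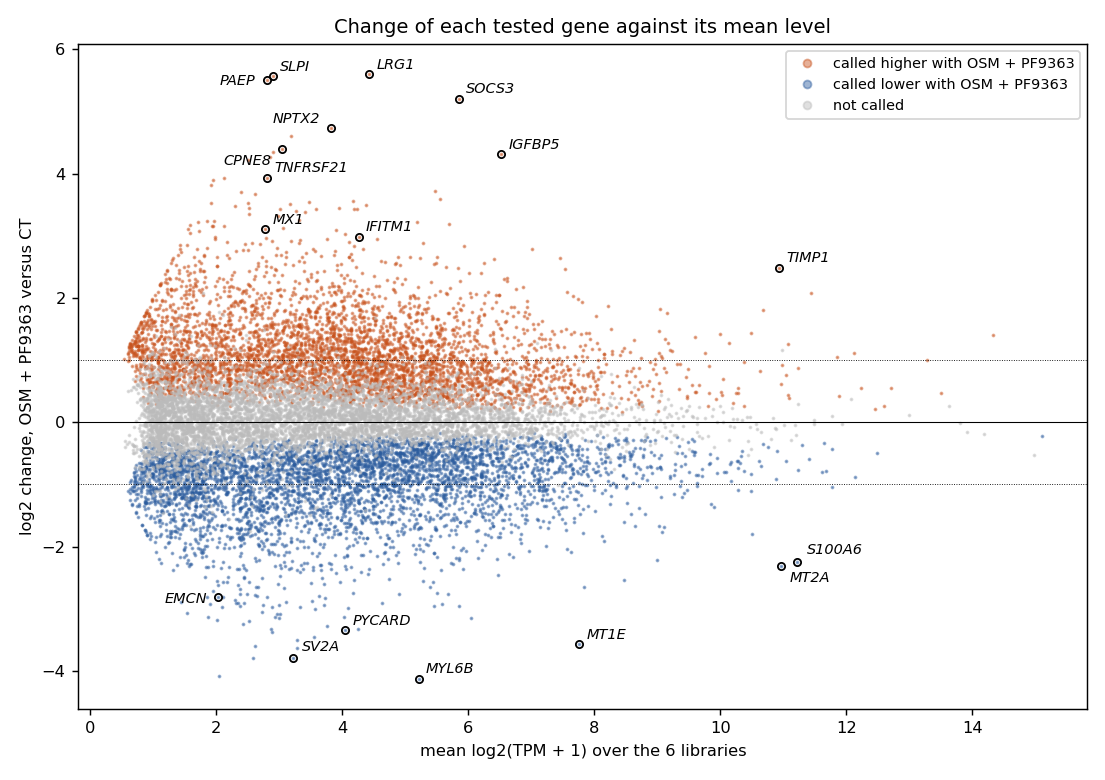
Each point is 1 of the 15115 tested genes, with its mean log2(TPM + 1) over the 6 libraries on the x axis and its log2 change, oncostatin M with PF9363 versus CT, on the y axis. Colours mark genes called higher or lower, dotted lines mark 2-fold changes and circles mark genes named in the text, such as LRG1 at 5.60 and MYL6B at -4.12.

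Sequences around the start of 3 of these genes show the short motifs searched for in the interferon and STAT3 gene lists. The first motif, GAAA with a second GAAA after any 2 bases, is part of the element that interferon regulatory factors bind, and TTCNNNGAA is the core that STAT dimers recognise. Both strands were searched in RefSeq windows of GRCh38.p14 that run from 250 bases before to 50 after the start of a gene, and TTCNNNGAA reads the same on both. Shown are 150 bases before to 30 after the start, 5′ to 3′ on the gene's strand, with the motif matches in capitals, for the marker gene IFITM1, for MX1, the interferon gene with the largest change, and for BCL6, which with CISH had the most matches of the STAT3 list (IFITM1 at chr11:313890-314069, plus strand; MX1 at chr21:41420408-41420587, plus strand; BCL6 at chr3:187745439-187745618, minus strand).
IFITM1: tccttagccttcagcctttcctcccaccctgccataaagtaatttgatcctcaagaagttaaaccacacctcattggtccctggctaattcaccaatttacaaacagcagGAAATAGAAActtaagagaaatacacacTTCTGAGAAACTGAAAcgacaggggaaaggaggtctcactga
MX1: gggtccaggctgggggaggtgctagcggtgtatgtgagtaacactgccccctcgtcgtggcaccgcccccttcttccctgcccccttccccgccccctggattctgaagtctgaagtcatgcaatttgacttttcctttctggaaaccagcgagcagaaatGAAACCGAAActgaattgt
BCL6: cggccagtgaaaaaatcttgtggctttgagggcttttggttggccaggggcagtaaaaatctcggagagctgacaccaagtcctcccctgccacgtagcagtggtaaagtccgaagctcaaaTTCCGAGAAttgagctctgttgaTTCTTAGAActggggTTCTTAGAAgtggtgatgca
In IFITM1 the match TTCTGAGAA overlaps the second match of the GAAA pair. BCL6 had 4 matches in its window, of which 3 lie in the printed stretch. The GAAA pair occurred in 21 of 34 interferon list windows (61.8%), against 996 of 27305 windows of all genes (3.65%). It occurred in 16 of the 25 members called higher and in 5 of the 7 tested members that were not. TTCNNNGAA occurred in 2 of 15 windows of the STAT3 list (13.3%) and in 1 of the 13 members called higher (7.69%), against 7.88% of all windows. In the interferon list it occurred in 9 of 34 windows (26.5%). A match describes letters in this window only. The window of SOCS3 held neither motif.

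Comparisons of PF9363 with OSM and of OSM with CT share libraries with the main comparison, so the values are given side by side and no relation between them is drawn. In PF9363 versus OSM 12.5% of the 15115 genes were called higher and 36.1% lower, and in OSM versus CT 43.1% higher and 17.1% lower.

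Feedback and receptor genes of the cytokine's own pathway were higher than in untreated cells. SOCS3, the feedback inhibitor of gp130 receptors (chromosome 17, 78356778 to 78360077, GRCh38), stood at 370.3, 392 and 293 TPM in PF9363, against 5.47, 11.5 and 9.57 TPM in CT (log2 change 5.21, SE 0.20, adjusted p = 2.79e-08). Every PF9363 library lay far above every CT library, and the ratio of the means was 39.8. With oncostatin M alone SOCS3 stood at 376, 379 and 391 TPM, and the difference of PF9363 from it was not called (log2 change -0.13, adjusted p = 0.624). The mRNA of the cytokine itself was at 0 in 5 of the 6 libraries and at 0.0894 TPM in PF9363 replicate 3.

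All 3 receptor chains were higher. OSMR, the chain specific to oncostatin M, had 149, 133 and 83.2 TPM in PF9363 and 13.8, 24.4 and 23.8 TPM in CT (log2 change 2.4996, SE 0.24, adjusted p = 8.64e-06). IL6ST, which encodes gp130, had 230.3, 192 and 94.6 TPM in PF9363 and 6.80, 46.9 and 30.6 TPM in CT (log2 change 2.83, SE 0.56, adjusted p = 0.00141). PF9363 replicate 3 was the lowest of its group and CT replicate 1 the lowest of all for this gene, and the change was 2.06 without that CT library. LIFR, which also serves leukemia inhibitory factor, had 19.0, 15.05 and 7.25 TPM in PF9363 and 0.627, 2.99 and 2.05 TPM in CT (log2 change 2.35, adjusted p = 0.000256). The receptor chains did not overlap between the groups. Of the signal carriers, STAT3 had 108, 107 and 77.7 TPM in PF9363 and 27.7, 38.2 and 34.4 TPM in CT (log2 change 1.51, adjusted p = 7.71e-06), JAK2 rose by 1.97 and JAK1 by 0.99. Of 12 tested genes of this receptor, JAK and STAT list 9 were higher and 2 lower, with a median change of 1.32 against 0.05 over all genes. TYK2, another JAK kinase, fell by 0.73, with a corrected change of -0.29, and STAT5A fell by 0.32, with a corrected change of 0.04.

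STAT3 targets rose without exception among those called. Of 19 tested members 16 were higher and 0 lower, with a median change of 1.13. TIMP1, an inhibitor of matrix metalloproteinases, had 3825, 4276 and 6014 TPM in PF9363 and 1184, 650.0 and 727 TPM in CT (log2 change 2.48, SE 0.21, adjusted p = 4.31e-06). SOCS1, a second feedback inhibitor, had 11.5, 16.8 and 13.5 TPM in PF9363 and 0.797, 0.894 and 1.44 TPM in CT (log2 change 2.87, adjusted p = 2.08e-07). Both stood above OSM cells as well, by 1.93 (adjusted p = 3.36e-05) and 1.59 (adjusted p = 1.63e-05). JUNB, an AP-1 subunit, rose to 226 ± 26.7 TPM in PF9363, against 50.4 ± 5.18 TPM in CT (mean ± SD, n = 3 each). BCL6, a transcriptional repressor, went the other way relative to OSM cells. It had 21.95, 20.7 and 12.5 TPM in PF9363, 60.0, 56.2 and 51.5 TPM in OSM and 3.03, 6.67 and 4.77 TPM in CT, so that it was above CT by 1.75 and below OSM by a log2 change of -1.59 (adjusted p = 0.000289).

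**Figure D2:**
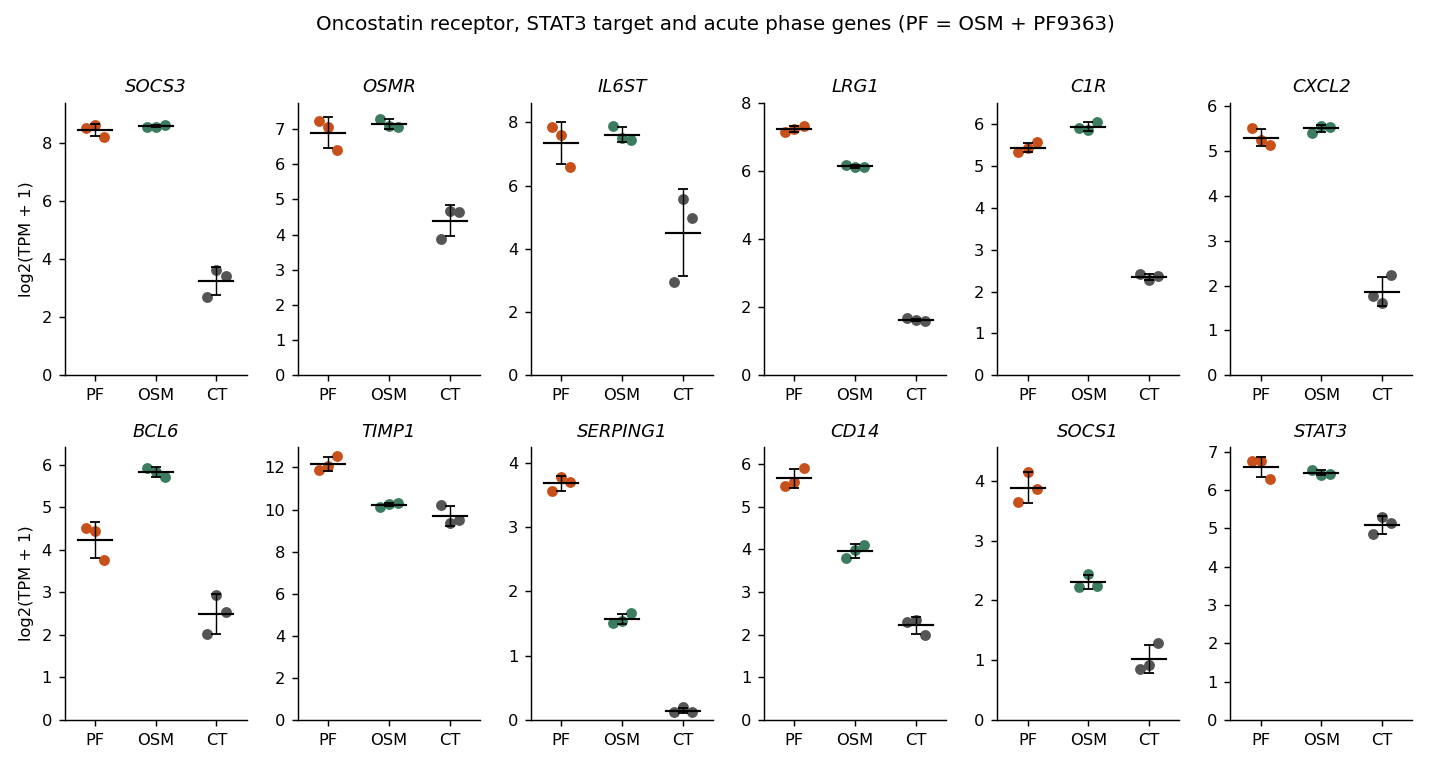
Level of 12 genes as log2(TPM + 1) in each library of the PF9363 group (PF), the OSM group and the CT group, with the mean as a bar and the SD as whiskers (n = 3). SOCS3, OSMR and CXCL2 sit near the OSM level, LRG1, TIMP1, SERPING1, CD14 and SOCS1 above it, and BCL6 between OSM and CT.

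The acute phase and complement list had the highest median of all lists with at least 5 tested members, at 2.47, and of 10 tested members 8 were higher and none lower. The other 10 of 20 listed genes did not reach the level needed. A gene could pass the filter through the PF9363 libraries alone, as SERPING1 did, so the tested members lean towards higher calls. Of the 20 listed genes 6 were at 0 in all CT libraries. The rank of the list is a description only. LRG1, a secreted glycoprotein that promotes vessel growth (chromosome 19, 4536409 to 4540474, GRCh38), had the largest change on the log2(TPM + 1) scale. Its corrected change of 5.77 was below those of PAEP (5.83) and SLPI (5.81), described below. It had 139, 149 and 158 TPM in PF9363, 71.2, 68.1 and 67.9 TPM in OSM and 2.18, 2.05 and 2.03 TPM in CT (log2 change 5.60, SE 0.08, adjusted p = 2.3e-11). Its libraries were tight within each group and the 3 groups formed separate steps. SERPING1, the inhibitor of the complement protease C1, had 10.8, 12.8 and 12.02 TPM in PF9363 and 0.0882, 0.149 and 0.0845 TPM in CT (log2 change 3.54). C1R, one of the proteases it inhibits, had 39.3, 42.4 and 46.5 TPM in PF9363 and 4.38, 3.87 and 4.14 TPM in CT, and was slightly below OSM cells (log2 change -0.50). CD55, which shields host cells from complement, had 129, 110.3 and 102 TPM in PF9363 and 10.5, 22.5 and 20.8 TPM in CT, and exceeded OSM by 1.84 (adjusted p = 6.36e-05).

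Interferon-stimulated genes, which answer to interferons through STAT and IRF factors, were the largest list and by number had the most members called higher. Of 43 tested members 35 were higher and 2 lower, 30 of them at least 2-fold higher, and the median change was 1.56. As a share this was like the STAT3 list (16 of 19) and the acute phase list (8 of 10). IFITM1, a membrane protein that blocks virus entry (chromosome 11, 313506 to 315272, GRCh38), had 53.1, 52.5 and 53.4 TPM in PF9363, 29.1, 28.3 and 33.0 TPM in OSM and 3.91, 6.86 and 7.15 TPM in CT (log2 change 2.99, SE 0.19, adjusted p = 5.59e-07). Its PF9363 libraries were nearly identical and all CT libraries were below them. MX1, an antiviral GTPase (chromosome 21, 41420304 to 41459214, GRCh38), had 19.8, 18.1 and 19.5 TPM in PF9363, 2.10, 1.49 and 1.63 TPM in OSM and 1.22, 1.26 and 1.54 TPM in CT (log2 change 3.11, SE 0.12, adjusted p = 3.16e-08). The OSM level of MX1 was close to CT, with a log2 change of 0.22 between them (adjusted p = 0.137). OAS2, an enzyme that answers to double-stranded RNA, had 33.6, 31.7 and 24.9 TPM in PF9363 and 2.99, 3.87 and 3.81 TPM in CT (log2 change 2.76, adjusted p = 1.31e-07), and HERC6, a ubiquitin ligase family member, 14.3, 13.1 and 14.1 TPM in PF9363 and 1.18, 1.29 and 1.02 TPM in CT (log2 change 2.78, adjusted p = 2.24e-07). For both the change of OSM against CT did not pass, at 0.07 (adjusted p = 0.669) and 0.27 (adjusted p = 0.155).

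The side-by-side values differed between members. For IFI16, a DNA sensor, the change of PF9363 against CT was 2.04 (corrected 1.35) and that of OSM against CT 2.002. For GBP1, an interferon-induced GTPase, the values were 1.94 and 1.83. For IRF7, an interferon regulatory factor, they were 1.84 and -0.23, and for OASL 1.77 and 0.06. ISG15, a ubiquitin-like modifier, was not called, with 245, 269 and 448 TPM in PF9363, 108, 112 and 112 TPM in OSM and 382, 222 and 236 TPM in CT. The 2 members that fell were LGALS3BP, a secreted glycoprotein, by 1.56 and UBE2L6, the conjugating enzyme of ISG15, by 0.85 (corrected -0.52). IFI16, GBP1, IRF7, OASL, ISG15, LGALS3BP and UBE2L6 were named after their values were seen. Corrected, 38 members were higher and 2 lower.

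Antigen presentation genes were higher too. Of 18 tested genes of MHC class I and peptide loading 13 were higher and none lower, with a median change of 0.70, and 16 were higher in corrected values. B2M, the light chain of all class I molecules, had 1437, 1164 and 1154 TPM in PF9363 and 368, 543 and 548 TPM in CT (log2 change 1.38, adjusted p = 2.07e-05). HLA-B had 794, 841 and 1023 TPM in PF9363, 396, 419 and 439.8 TPM in OSM and 379.5, 314 and 355 TPM in CT (log2 change 1.34, adjusted p = 2.51e-06). The HLA genes are closely similar in sequence and how the authors' counting divided reads between them is not known, so values of single HLA genes are uncertain. TAP2, a subunit of the peptide transporter, rose to 57.1 ± 9.89 TPM in PF9363, against 14.7 ± 2.74 TPM in CT, and ERAP1, which trims peptides, to 42.5 ± 13.5 TPM in PF9363, against 11.8 ± 5.41 TPM in CT (SD, n = 3 each).

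MHC class II, normally restricted to professional antigen-presenting cells and induced in endothelium by interferon gamma, reached low but measurable levels. HLA-DRA, the alpha chain of HLA-DR, had 10.6, 10.3 and 9.31 TPM in PF9363, 0.272, 0.491 and 0.174 TPM in OSM and 0, 0.574 and 0.734 TPM in CT (log2 change 2.98, adjusted p = 2.61e-06). CD74, the invariant chain, had 3.52, 3.67 and 3.81 TPM in PF9363 and 0.266, 0.634 and 0.509 TPM in CT (log2 change 1.67, adjusted p = 1.91e-06). CIITA, the master regulator of these genes, stayed under the filter at 0.494, 0.501 and 0.421 TPM in PF9363 and 0.0306, 0.0258 and 0.0293 TPM in CT. Of 5 tested class II genes of 12 listed 3 were higher and 2 lower (median 0.74). HLA-DRA and CD74 were under 1 TPM in every CT library and passed the filter through the PF9363 libraries alone. The count therefore leans towards higher calls and is a description only. Leukocyte markers other than CD14 and FCER1G did not reach the filter.

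**Figure D3:**
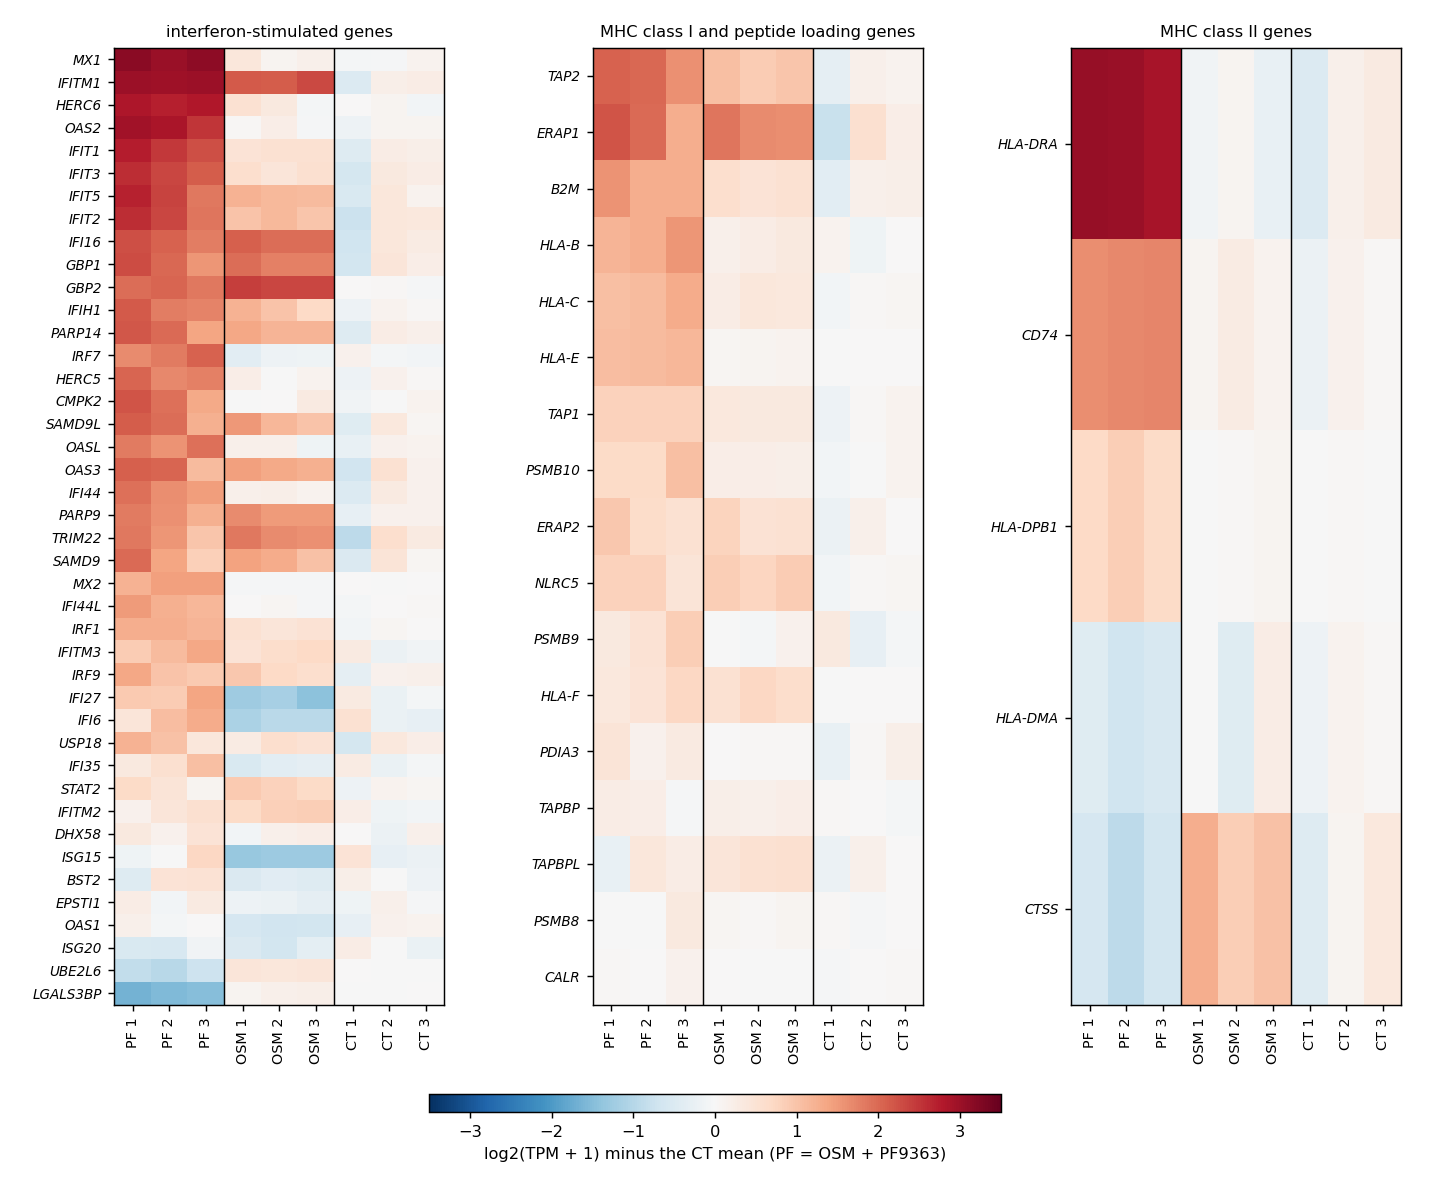
Tested members of the interferon, MHC class I and MHC class II lists that are reported here, 1 row per gene, as log2(TPM + 1) minus the CT mean in each library of the PF9363 group (PF), the OSM group and the CT group. MX1, HERC6 and OAS2 are raised in the PF columns and near the CT level in the OSM columns, whereas IFI16 and GBP1 are raised in both.

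Inflammatory genes were raised in part. Of 18 tested chemokine and cytokine genes 13 were higher and 2 lower (median 0.98). CXCL2, which attracts neutrophils, had 44.6, 37.2 and 34.1 TPM in PF9363, 41.4, 46.5 and 45.6 TPM in OSM and 2.39, 2.04 and 3.70 TPM in CT (log2 change 3.43, SE 0.17, adjusted p = 9.66e-08). CXCL1, its close relative, had 18.4, 18.1 and 16.6 TPM in PF9363, 3.11, 4.79 and 4.29 TPM in OSM and 4.55, 6.16 and 5.92 TPM in CT (log2 change 1.52, adjusted p = 1.24e-05). Both were above CT in every PF9363 library, but OSM cells were at the PF9363 level for CXCL2 and near the CT level for CXCL1. CCL5, which attracts T cells, rose to 9.13 ± 2.04 TPM in PF9363, against 3.70 ± 0.391 TPM in CT. CXCL8, a further neutrophil attractant, rose by 1.18, and its corrected change was 0.70. IL6, the founding cytokine of the gp130 family, named after its values were seen, was not called. It had 2.51, 2.97 and 1.64 TPM in PF9363, 11.05, 10.05 and 10.1 TPM in OSM and 1.61, 2.24 and 2.80 TPM in CT, so the OSM libraries alone stood high.

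Of 18 tested NF-kappaB targets and feedback genes 11 were higher and 3 lower (median 0.55). CD40 among them passed the filter through the PF9363 libraries alone. CD40, the receptor through which T cells activate antigen-presenting cells and endothelium, had 14.8, 16.3 and 21.8 TPM in PF9363, 2.42, 2.34 and 2.40 TPM in OSM and 0.757, 0.849 and 0.785 TPM in CT (log2 change 3.36, SE 0.13, adjusted p = 3.21e-08). SOD2, the mitochondrial superoxide dismutase, had 36.6, 31.7 and 20.1 TPM in PF9363 and 2.64, 8.22 and 7.30 TPM in CT (log2 change 2.18, adjusted p = 0.000185). CFLAR, an inhibitor of caspase 8, rose by 1.46 and NFKBIZ, a nuclear IkappaB protein, by 1.52. In a fit to the 6 libraries alone 7 members were higher and 1 lower. CD14, a co-receptor for bacterial lipopolysaccharide that is a leukocyte marker, had 44.0, 47.3 and 59.6 TPM in PF9363, 12.9, 14.8 and 16.3 TPM in OSM and 3.95, 4.11 and 2.96 TPM in CT (log2 change 3.45, SE 0.14, adjusted p = 4.13e-08), while PTPRC was near 0 in the same libraries. Of 16 tested AP-1 and immediate early genes 11 were higher and none lower (median 0.85), with FOS at 11.5 ± 1.497 TPM in PF9363 and 1.80 ± 0.749 TPM in CT. Of 15 tested ERK feedback genes 9 were higher and 2 lower (median 0.70). SPRED1, an inhibitor of the RAS pathway, rose by 2.44 and the phosphatase DUSP6 by 1.72.

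Endothelial identity genes moved in both directions. Of 39 tested members 18 were higher and 13 lower (median 0.33), shares not far from those over all genes for the lower calls. FLT1, a receptor for vascular endothelial growth factor, had 37.8, 35.1 and 21.2 TPM in PF9363, 12.5, 10.7 and 10.7 TPM in OSM and 1.59, 2.29 and 2.06 TPM in CT (log2 change 3.41, SE 0.19, adjusted p = 2.26e-07). EMCN, a sialomucin of the capillary surface (chromosome 4, 100395341 to 100880126, GRCh38), had 0.675, 0.513 and 0.441 TPM in PF9363, 11.8, 12.3 and 11.4 TPM in OSM and 8.45, 10.6 and 10.7 TPM in CT (log2 change -2.82, SE 0.12, adjusted p = 5.06e-08). The EMCN libraries of PF9363 were all under 1 TPM and those of OSM and CT all above 8. The fall was not particular to PF9363, since EMCN was at 0.925, 0.759 and 0.639 TPM with oncostatin M and CBP300. THBD, the thrombomodulin that turns thrombin into an anticoagulant, had 160.3, 158 and 105 TPM in PF9363 and 27.0, 55.2 and 44.6 TPM in CT (log2 change 1.75, adjusted p = 9.27e-05). The junction cadherin CDH5 had 112, 109 and 73.6 TPM in PF9363 and 114, 219.5 and 198 TPM in CT (log2 change -0.81, adjusted p = 0.00952), and CT replicate 1 lay just above the PF9363 libraries. KDR, the main growth factor receptor of endothelium, had 59.0, 54.6 and 30.2 TPM in PF9363 and 7.70, 21.6 and 18.3 TPM in CT (log2 change 1.59, adjusted p = 0.00201, corrected change 0.94). TIE1, an orphan receptor, with 148, 160.2 and 127 TPM in PF9363 and 117, 178 and 159 TPM in CT, was not called, and neither was the junction protein ESAM. MMRN1, a multimerin of platelets and endothelium, rose by 2.19 and its corrected change was 1.29. NOS3, the endothelial nitric oxide synthase, named after its values were seen, had 35.2, 40.0 and 28.1 TPM in PF9363, 7.42, 8.66 and 9.62 TPM in OSM and 10.4, 13.8 and 13.5 TPM in CT (log2 change 1.38, adjusted p = 3.63e-05). In these bulk libraries fewer cells making a transcript and less of it per cell cannot be told apart.

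Adhesion and junction genes were more often lower than higher. Of 14 tested members 3 were higher and 8 lower (median -0.49), and in corrected values 3 were higher and 6 lower (median -0.19). CD34, a sialomucin of capillary endothelium, had 15.96, 17.0 and 14.4 TPM in PF9363, 15.5, 15.6 and 14.5 TPM in OSM and 32.6, 41.0 and 39.8 TPM in CT (log2 change -1.203, adjusted p = 6.54e-06). ALCAM, a ligand of leukocyte CD6, fell by 1.22, with a corrected change of -1.90, and CD99, which guides leukocytes through the endothelium, fell by 0.81. CD44, the hyaluronan receptor, rose to 139 ± 20.0 TPM in PF9363, against 39.3 ± 10.2 TPM in CT. ICAM1, the integrin ligand, named after its values were seen, had 44.2, 39.2 and 46.6 TPM in PF9363, 85.4, 88.2 and 87.6 TPM in OSM and 21.8, 25.7 and 27.4 TPM in CT (log2 change 0.78, adjusted p = 6.68e-05, corrected change 1.19), midway between the other groups. VCAM1 and SELE stayed under the filter.

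Genes of clotting and its reversal also split. Of 16 tested members 7 were higher and 5 lower (median 0.27). PLAUR, the urokinase receptor, had 167, 176 and 203 TPM in PF9363, 50.6, 51.2 and 55.7 TPM in OSM and 45.2, 40.5 and 43.6 TPM in CT (log2 change 2.05, SE 0.09, adjusted p = 5.06e-08). THBS1, thrombospondin 1, had 766, 699 and 339.5 TPM in PF9363 and 65.3, 273 and 203 TPM in CT (log2 change 1.87, adjusted p = 0.00487), and was 1.26 without CT replicate 1. LIPG, the endothelial lipase, had 37.98, 33.6 and 22.7 TPM in PF9363, 54.8, 48.4 and 46.9 TPM in OSM and 0.304, 0.995 and 0.709 TPM in CT (log2 change 4.27, adjusted p = 7.7e-08).

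Matrix genes were lower more often than higher, though in corrected values the shares were near those over all genes (33.1% higher and 32.9% lower). Of 33 tested basement membrane and matrix genes 6 were higher and 15 lower (median -0.42), and in corrected values 10 were higher and 13 lower (median -0.14). FBLN5, a fibulin needed for elastic fibres, had 3.43, 3.53 and 2.83 TPM in PF9363, 13.8, 14.1 and 14.2 TPM in OSM and 14.6, 22.7 and 20.5 TPM in CT (log2 change -2.23, SE 0.14, adjusted p = 6.23e-07). EFEMP2, another fibulin, had 24.6, 28.8 and 27.1 TPM in PF9363 and 87.9, 103 and 97.99 TPM in CT (log2 change -1.81, adjusted p = 1.12e-07). COL1A2, a chain of type I collagen, had 2.43, 2.83 and 2.196 TPM in PF9363, 2.94, 3.21 and 2.96 TPM in OSM and 7.49, 13.1 and 12.4 TPM in CT (log2 change -1.75, adjusted p = 1.36e-05). PF9363 was thus below both other groups for FBLN5, and PF9363 and OSM were both low for COL1A2. LOX, the lysyl oxidase that crosslinks collagen, went up, with 52.8, 41.5 and 23.6 TPM in PF9363 and 2.44, 9.52 and 6.72 TPM in CT (log2 change 2.55, adjusted p = 0.000191). FN1, fibronectin, named after its values were seen, was not called, with 343, 301 and 171 TPM in PF9363, 838, 734 and 694 TPM in OSM and 148, 373 and 319 TPM in CT.

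HOX genes, which set positional identity, had 4 members called higher and 15 lower of 29 tested (median -0.35), against 6 and 14 in corrected values (median -0.21). The list summed to 318 to 326 TPM in PF9363 and 457 to 531 TPM in CT. HOXD9 had 17.9, 20.6 and 22.3 TPM in PF9363, 81.3, 86.7 and 83.8 TPM in OSM and 97.7, 86.5 and 85.2 TPM in CT (log2 change -2.10, SE 0.10, adjusted p = 8.14e-08). HOXD10, its neighbour, had 0.534, 0.606 and 0.917 TPM in PF9363 and 4.37, 5.96 and 6.16 TPM in CT (log2 change -1.94, adjusted p = 1.07e-06). HOXA7 fell to 12.5 ± 1.06 TPM in PF9363, against 40.3 ± 6.60 TPM in CT, and HOXA2 to 3.88 ± 0.322 TPM in PF9363, against 12.1 ± 4.57 TPM in CT. HOXD13, at the end of the same cluster as HOXD9 and named after its values were seen, went the other way, with 3.40, 2.70 and 2.59 TPM in PF9363 and 0 in all CT libraries. For these genes OSM cells stood near CT or above it.

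**Figure D4:**
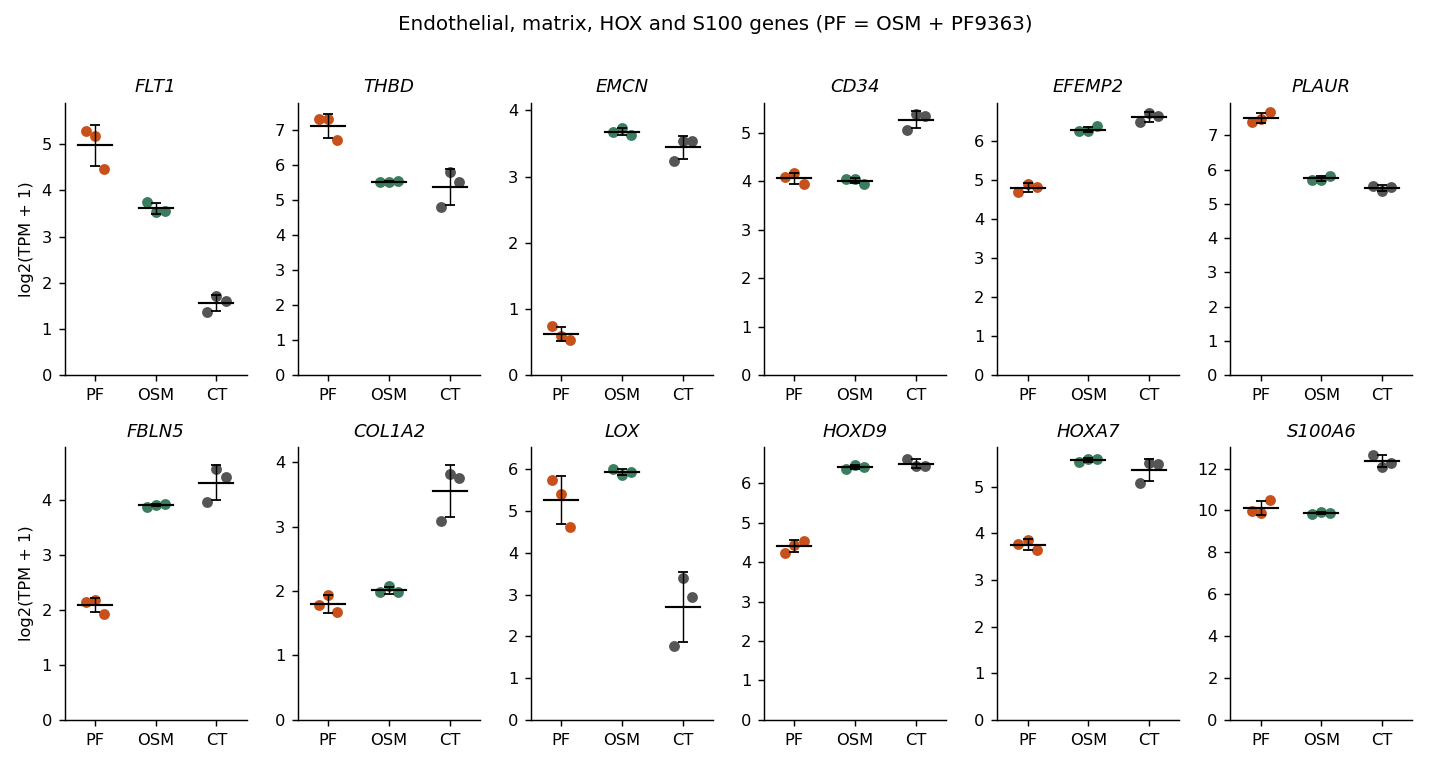
Level of 12 genes as log2(TPM + 1) in each library of the PF9363 group (PF), the OSM group and the CT group, with the mean as a bar and the SD as whiskers (n = 3). Among the groups shown, EMCN, HOXD9 and HOXA7 are low in PF9363 only. FBLN5 is lowest in PF9363, with OSM also below CT (log2 change -0.41). In the CBP300 group, not shown, EMCN (0.639 to 0.925 TPM) and HOXD9 (31.8 to 36.2 TPM) were low too. CD34, COL1A2 and S100A6 are low in both treated groups, and FLT1, PLAUR and THBD are highest in PF9363.

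Regulators of endothelial-to-mesenchymal transition and contractile genes were mixed. Of 20 tested EndMT regulators 9 were higher and 4 lower (median 0.57). In corrected values with both divergent libraries left out 15 were higher and 3 lower. Over all 15026 genes with corrected values that setting gave 5496 higher and 5376 lower. SNAI2, a repressor of cadherin genes, had 7.19, 5.35 and 4.92 TPM in PF9363 and 0.484, 1.63 and 1.16 TPM in CT (log2 change 1.73, adjusted p = 5.57e-05). ZEB1, a repressor of the same kind, had 22.1, 17.9 and 8.28 TPM in PF9363 and 1.49, 6.37 and 4.12 TPM in CT (log2 change 1.81, adjusted p = 0.00246). TGFB2, a ligand that can drive the transition, rose by 1.58, with a corrected change of 0.79. The mesenchymal marker S100A4 fell to 3.61 ± 1.84 TPM in PF9363, against 18.1 ± 6.41 TPM in CT. Of 20 tested contractile and SRF or YAP target genes 8 were higher and 4 lower (median 0.14, corrected 0.33). TPM2, a tropomyosin, had 14.9, 15.96 and 19.8 TPM in PF9363 and 86.8, 61.0 and 70.5 TPM in CT (log2 change -2.04, adjusted p = 1.48e-06), and the receptor kinase AXL fell by 1.70. LATS2, a kinase that restrains YAP, rose by 2.04 and its partner AMOTL2 by 1.69.

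Genes for glucose use were higher. Of 32 tested hypoxia and glycolysis genes 22 were higher and 5 lower (median 0.83), against 24 and 2 in corrected values. HIF1A, the oxygen-regulated transcription factor, had 168, 119.8 and 187 TPM in PF9363 and 4.94, 37.2 and 21.4 TPM in CT (log2 change 3.19, SE 0.52, adjusted p = 0.000399). CT replicate 1 was the lowest by far, and without it the change was 2.42, or 2.0004 corrected and with PF9363 replicate 3 left out too. SLC2A3, a glucose transporter, had 117, 108 and 89.7 TPM in PF9363, 126, 122 and 118 TPM in OSM and 10.9, 14.3 and 14.9 TPM in CT (log2 change 2.89, adjusted p = 5.42e-08). HK2, a hexokinase, rose to 13.3 ± 2.62 TPM in PF9363, against 2.64 ± 1.08 TPM in CT, and PFKFB3, which speeds glycolysis, rose by 1.93. SLC2A3 and HK2 were not called against OSM (adjusted p = 0.172 and 0.0543).

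Stress programmes were raised to unequal extents. Of 25 tested amino acid and ATF4 response genes 17 were higher and 2 lower (median 0.86). SLC7A5, a transporter of large neutral amino acids, had 227, 241 and 171 TPM in PF9363, 70.9, 81.3 and 80.4 TPM in OSM and 30.9, 51.6 and 45.2 TPM in CT (log2 change 2.31, SE 0.18, adjusted p = 2.06e-06). ATF3, a stress transcription factor, had 20.5, 18.9 and 18.5 TPM in PF9363 and 5.08, 5.52 and 5.27 TPM in CT (log2 change 1.69, adjusted p = 1.95e-07). SLC7A11, the cystine transporter, rose by 2.12, with a corrected change of 1.17. Of 15 tested NRF2 antioxidant genes 10 were higher and 1 lower (median 0.82). OSGIN1, an oxidative stress response gene, had 17.7, 18.8 and 23.7 TPM in PF9363, 1.98, 2.35 and 2.45 TPM in OSM and 3.60, 2.86 and 3.59 TPM in CT (log2 change 2.27, adjusted p = 3e-07), and OSM cells were below CT by a log2 change of -0.41. GCLM, a subunit of the enzyme that makes glutathione, rose to 44.2 ± 16.03 TPM in PF9363, against 6.34 ± 3.23 TPM in CT. Of 15 tested heat shock genes 10 were higher and 3 lower (median 0.94). The cytosolic chaperone HSP90AA1 had 2752, 2322 and 2030.4 TPM in PF9363 and 643, 1039 and 989 TPM in CT (log2 change 1.43, adjusted p = 4.3e-05). CRYAB, a small heat shock protein, was the main exception, with 0.935, 1.12 and 1.08 TPM in PF9363, 1.16, 1.3003 and 1.28 TPM in OSM and 13.1, 10.5 and 11.2 TPM in CT (log2 change -2.62, adjusted p = 5.13e-08). HSPA1B rose by 1.46, but it has a near-identical copy and its value is uncertain. HSPH1 rose by 1.70, with a corrected change of 0.87. Of 19 tested unfolded protein response genes 8 were higher and 2 lower (median 0.19), against 9 and 5 in corrected values. The co-chaperone DNAJB9 rose by 1.89.

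Cell cycle genes leaned higher for mitosis. Of 28 tested G2/M genes 20 were higher and 2 lower (median 0.87, corrected 0.48). MAD2L1, of the spindle checkpoint, had 98.4, 74.9 and 66.5 TPM in PF9363 and 10.3, 32.0 and 23.6 TPM in CT (log2 change 1.93, adjusted p = 0.00039). TTK, a kinase of the same checkpoint, rose by 1.68 and HMMR, a spindle protein, by 1.91, which was 1.18 without CT replicate 1. The corrected changes with CT replicate 1 and PF9363 replicate 3 both left out were 1.28 for MAD2L1, 1.06 for TTK and 0.91 for HMMR. All of them were lowest in CT replicate 1. Of 28 tested S phase genes 11 were higher and 5 lower (median 0.21), with UHRF1, which helps copy DNA methylation, at 113 ± 28.3 TPM in PF9363 and 33.1 ± 14.8 TPM in CT. Of 23 tested ribosome biogenesis genes 14 were higher and 3 lower (median 0.76), against 16 and 1 in corrected values. NPM1, nucleophosmin, had 950.0, 844 and 854 TPM in PF9363 and 295, 466 and 447 TPM in CT (log2 change 1.16, adjusted p = 7.06e-05, or 0.76 corrected and without the 2 divergent libraries), and NOLC1, a nucleolar phosphoprotein, rose by 1.303.

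The abundant metallothioneins and several S100 genes were lower. MT2A, the main metallothionein, which binds zinc and copper, had 693, 849.6 and 1203 TPM in PF9363, 1796, 2156 and 2176 TPM in OSM and 6794, 3453 and 3694 TPM in CT (log2 change -2.31, SE 0.25, adjusted p = 2.35e-05). MT1E had 50.3, 60.7 and 78.0 TPM in PF9363, 285, 255 and 316 TPM in OSM and 1052, 645 and 617 TPM in CT (log2 change -3.57, SE 0.22, adjusted p = 4.3e-07). The groups formed 3 separate steps for both genes. Metallothionein genes are near-identical copies and single values are uncertain. In the list of 12 tested metallothionein and zinc genes 5 were higher and 4 lower (median -0.06, corrected 0.22), and the higher ones were not metallothioneins but zinc transporters and the regulator MTF1, which rose by 1.03 (corrected 0.52). The zinc importer SLC39A8 had 8.36, 7.11 and 5.63 TPM in PF9363 and 0.343, 0.716 and 0.681 TPM in CT, and the exporter SLC30A1 rose by 2.12, with a corrected change of 1.14. S100A6, a calcium-binding protein, had 992, 940.0 and 1425 TPM in PF9363, 912, 976 and 956 TPM in OSM and 6488, 4352 and 4987 TPM in CT (log2 change -2.24, SE 0.17, adjusted p = 1.55e-06). Both treated groups were far below CT for it. Of 11 tested S100 genes 3 were higher and 6 lower (median -0.63). S100A9 was called higher at 1.76 (1.09 without CT replicate 1), but with 0, 5.92 and 1.33 TPM in CT the call was lost when both divergent libraries were left out (adjusted p = 0.0672) and in the fit to the 6 libraries alone.

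Genes of the inhibitor's targets and their partners were in part changed. Of 15 tested genes of KAT6 complexes and other acetyltransferases 8 were higher and 4 lower (median 0.57, and 0.15 in corrected values). KAT6A had 13.7, 11.9 and 5.27 TPM in PF9363 and 2.64, 4.06 and 3.79 TPM in CT (log2 change 1.25, adjusted p = 0.00293), with a corrected change of 0.56. KAT6B, the other target, had 2.44, 2.22 and 1.03 TPM in PF9363 and 0.479, 1.32 and 1.01 TPM in CT, and its groups overlapped. It was called by a narrow margin (adjusted p = 0.041), lost the call without CT replicate 1 (adjusted p = 0.137) and had a corrected change of -0.03, so no direction was settled. ING4, a subunit that reads methylated histone H3, had 12.4, 12.7 and 13.9 TPM in PF9363, 41.8, 44.8 and 45.6 TPM in OSM and 56.0, 52.2 and 58.5 TPM in CT (log2 change -2.01, SE 0.08, adjusted p = 3.7e-08). Its relative ING5 was not called, with 15.3, 14.9 and 13.2 TPM in PF9363 and 14.8, 17.2 and 16.7 TPM in CT. The scaffold BRPF1 rose by 0.85, its relative BRPF3 by 1.47, and the acetyltransferases of another family, CREBBP and EP300, by 1.14 and 1.37. EP300 overlapped between the groups through PF9363 replicate 3 and lost its call in the fit to the 6 libraries alone. These are mRNA levels, and enzyme activity was not measured.

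Among the steepest single rises were several genes that OSM cells barely expressed. SLPI, a secreted inhibitor of neutrophil proteases, had 44.4, 45.9 and 62.1 TPM in PF9363, 0, 1.03 and 0.725 TPM in OSM and 0, 0 and 0.255 TPM in CT (log2 change 5.57, adjusted p = 3.28e-07). PAEP, a secreted lipocalin also known as glycodelin, had 43.1, 39.8 and 56.7 TPM in PF9363, 0.582, 0.140 and 0.149 TPM in OSM and 0, 0 and 0.105 TPM in CT (log2 change 5.51, adjusted p = 1.32e-08). NPTX2, a neuronal pentraxin, had 72.4, 74.5 and 67.6 TPM in PF9363, 1.06, 1.82 and 1.499 TPM in OSM and 1.52, 1.83 and 1.86 TPM in CT (log2 change 4.73, adjusted p = 1.01e-08). In all 3 genes only the PF9363 libraries were high. NGFR, the low-affinity neurotrophin receptor, showed the same order, with 31.3, 36.0 and 30.7 TPM in PF9363 and 0.499, 1.12 and 0.404 TPM in CT. TNFRSF21, a death receptor, had 29.3, 31.7 and 19.5 TPM in PF9363 and 0.575, 0.943 and 0.847 TPM in CT. IGFBP5, which binds insulin-like growth factors, had 512, 509 and 265 TPM in PF9363, 142, 126 and 125 TPM in OSM and 11.6, 31.1 and 20.8 TPM in CT, and CPNE8, a copine, 50.4, 42.8 and 23.1 TPM in PF9363 and 0.217, 1.25 and 1.13 TPM in CT. GSDMC, a gasdermin, rose by 3.93. HBA2, an alpha globin, rose by 4.61, but it is a near-copy of HBA1, and 1 CT library held 5.18 TPM against 0 in the others.

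The steepest falls were in genes that OSM and CT cells expressed. MYL6B, a myosin light chain, had 7.05, 6.88 and 10.1 TPM in PF9363, 82.1, 84.1 and 95.98 TPM in OSM and 183, 137 and 145 TPM in CT (log2 change -4.12, SE 0.15, adjusted p = 2.25e-08). SV2A, a synaptic vesicle protein, had 1.46, 1.92 and 1.19 TPM in PF9363, 40.3, 39.1 and 42.8 TPM in OSM and 33.2, 35.1 and 32.8 TPM in CT (log2 change -3.79, SE 0.11, adjusted p = 1.18e-08). Their PF9363 libraries lay far below all libraries of OSM and CT. GIPC3, a PDZ domain protein, had 1.299, 1.15 and 1.46 TPM in PF9363, 36.9, 35.0 and 36.2 TPM in OSM and 22.7, 23.2 and 23.0 TPM in CT, and MORN2 0.451, 1.05 and 0.835 TPM in PF9363 and 19.5, 18.7 and 22.8 TPM in CT. PYCARD, the adaptor of inflammasomes, had 3.09, 4.55 and 5.15 TPM in PF9363, 21.3, 24.2 and 23.7 TPM in OSM and 70.0, 40.8 and 47.8 TPM in CT (log2 change -3.34, adjusted p = 3.28e-07). REEP2, an endoplasmic reticulum shaping protein, fell by 3.64, ATP6V0E2, a proton pump subunit, by 3.50, CLIP3, a microtubule-binding protein, by 3.45 and CCDC106 by 3.33. The pseudogenes RNA5SP202 and MT1P3 also fell, by 4.08 and 3.80, and as copies of other genes their values are uncertain. The 24 genes of this rule, 12 with the steepest rises and 12 with the steepest falls, kept direction and call in every alternative that tested them.

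**Figure D5:**
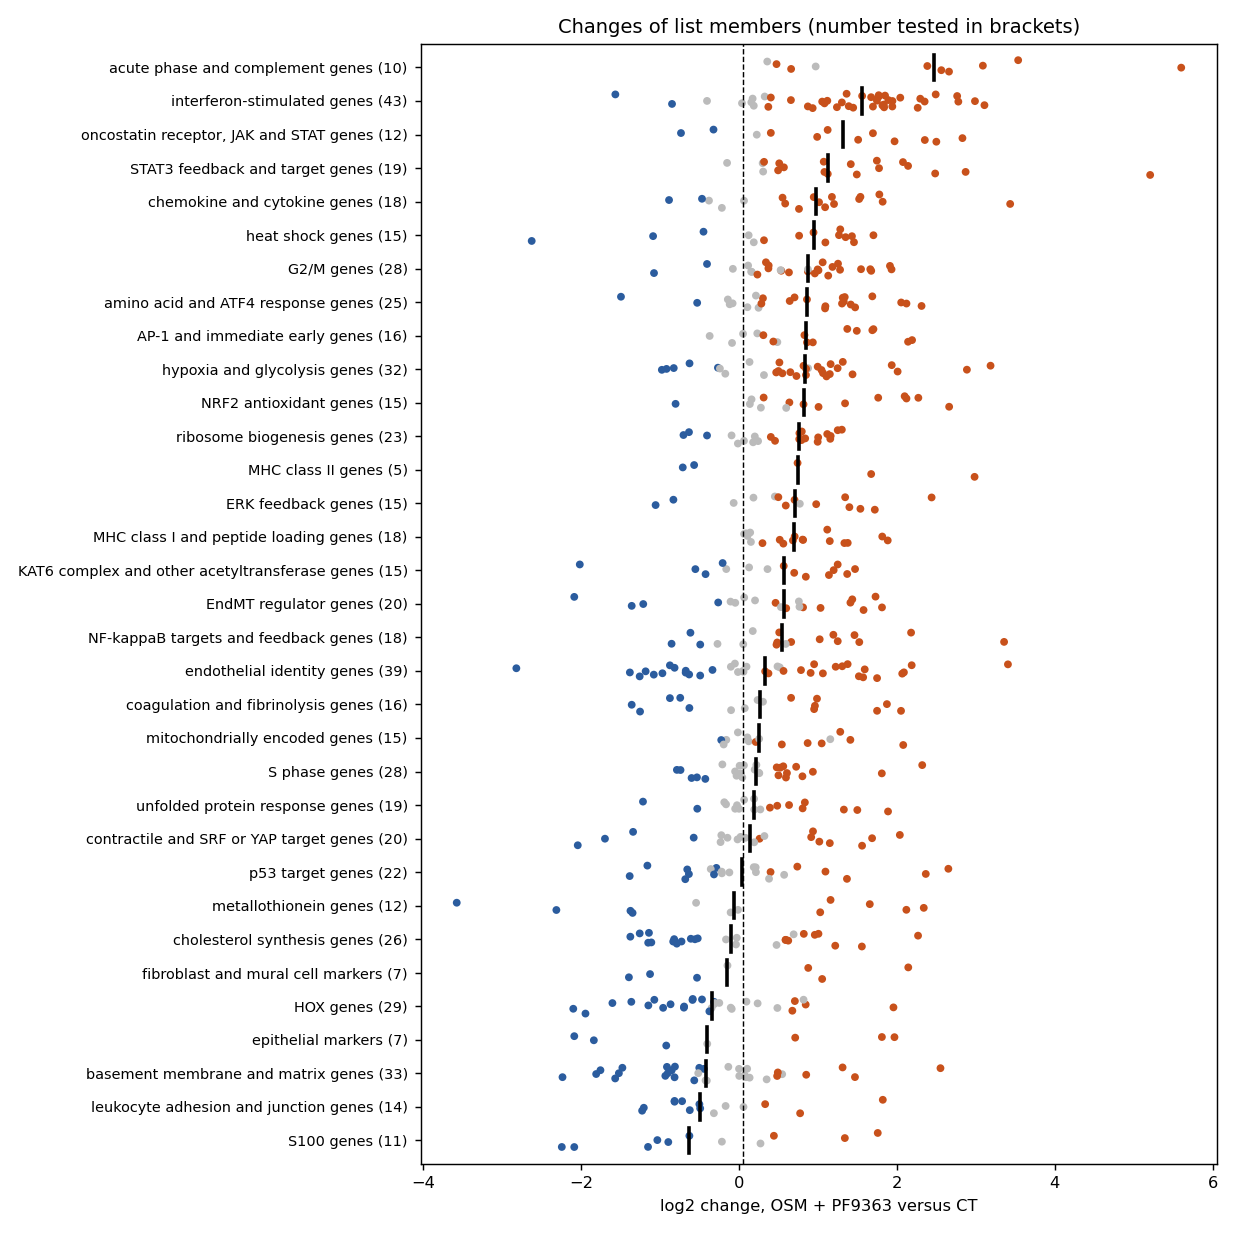
Log2 change, oncostatin M with PF9363 versus CT, of each tested member of the 33 lists with at least 5 tested members, 1 row per list, with called members in colour, the list median as a black bar and the median of all tested genes (0.05) as a dashed line. The acute phase list has the highest median, at 2.47, and the S100 list the lowest, at -0.63. Members could pass the filter through 1 group alone, so the order of the lists is a description only.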

How the data were processed

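Messenger RNA of 12 libraries, in 4 groups of 3, was sequenced after stranded poly(A) library preparation, per the labels' protocols. The authors deposited 1 table of TPM for 60623 genes. The submitters' processing notes name GRCh38, RSEM 1.3.3, Bowtie2 and Trimmomatic 0.40, and the annotation release is not given in the sources used here. The PF9363 columns fall short of a sum of 1e6 TPM by 397, 430 and 178, and no correction was made. Whole reads were recovered from the TPM steps for 15110 of 15115 tested genes (99.97%, tolerance 0.001), and depth was summed from them. Values were log2(TPM + 1). limma 3.58.1 (R 4.3.3) fitted 1 mean per group to all 12 libraries, with a variance trend, and Benjamini-Hochberg adjustment ran over the 15115 genes. The fit was also run on simulated data with equal spread in all groups and no GC trend or divergent library. That run cannot show how the calls hold in these libraries. Corrected changes had natural splines of GC content and transcript length (4 degrees of freedom each, GENCODE release 29) removed, for 15026 genes (99.4%). Members and the 34 gene lists were chosen with earlier results of these data known. Named were, among called genes whose higher group averaged 5 TPM or more without overlap, the 12 highest and 12 lowest changes, up to 4 called members per list, and the receptor and KAT6 genes. Some genes are not reported here. CD74, CIITA and the genes so marked in the text were added after their values were seen. Deviations from the group mean correlated at -0.57, 0.20 and -0.34 between same-numbered PF9363 and CT libraries. With 3 libraries a group and 1 divergent in each, these values cannot settle whether replicate numbers pair the libraries. RefSeq promoter windows existed for 10146 tested genes. Tables and plots used Python 3.11.15, pandas 2.3.3 and matplotlib 3.10.9. Alternatives are listed in the closing section.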

Additional observations from a re-analysis of the deposited data

How the results depend on the processing

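Of 152 called named genes 147 kept direction and call under all 20 alternatives. KLF10, EP300, S100A9 and KAT6B lost the call in the fit to 6 libraries, S100A9 also with both divergent libraries left out, and FCER1G with a pseudocount of 0.1. KAT6B also lost it with a pseudocount of 5, with no filter, without CT replicate 1 or 3 or PF9363 replicate 1 or 2, and in corrected values with both divergent libraries left out. KAT6B turned to -0.0273 with the GC content and length trend removed, and ING5, not called, to 0.152 with both divergent libraries also left out. Genes higher numbered 4546, or 2843 in the fit to 6 libraries. Genes at least 2-fold higher numbered 2214, or 1089 with a pseudocount of 5, and between 1444 (without CT replicate 1) and 2843 (without PF9363 replicate 3) with 1 library left out. Genes at least 2-fold lower numbered 1827, or 901 with a pseudocount of 5 and 2845 with voom on recovered reads. The median change was 0.0484, -0.0923 with voom and between -0.0724 (without CT replicate 1) and 0.118 with 1 library left out. Changes of that size depend on the scaling. With the replicate block 4225 genes were higher and 4496 lower. Whether the replicate numbers pair the libraries is not known. Of 68 list counts 27 moved by over 1.5 times under some alternative. The causes were not tested. Low genes rest on few reads at this depth, and their changes depend on the pseudocount.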

Other observations

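A small set of genes went between near silence and clear expression. In 25 genes all CT libraries were under 0.5 TPM and all PF9363 libraries at or above 5 TPM, and 4 genes showed the reverse; both sets were picked by their values and carry no test. Of the 25, 10 were under 0.5 TPM in all OSM libraries and 2 at or above 5 TPM in all of them. Those 2 were the serpins SERPINB3 and SERPINB4, near-identical copies whose single values are uncertain. The examples given next were chosen after their values were seen. SLC17A7, a vesicular glutamate transporter, had 6.61, 7.46 and 6.59 TPM in PF9363, 0.283, 0.136 and 0.289 TPM in OSM and 0.239, 0.298 and 0.203 TPM in CT. HTR3A, a serotonin-gated channel, had 5.55, 5.15 and 5.0003 TPM in PF9363, 0.0611, 0 and 0 TPM in OSM and 0, 0 and 0 TPM in CT. HPCAL4, a neuronal calcium sensor, had 8.11, 7.37 and 5.15 TPM in PF9363, 0.107, 0.171 and 0.318 TPM in OSM and 0.0334, 0.112 and 0.0960 TPM in CT. Of the 4 genes that went low, SAMD10, FAXDC2, RNA5SP202 and MIR3677, FAXDC2 had 0.326, 0.383 and 0.384 TPM in PF9363, 9.92, 10.1 and 8.21 TPM in OSM and 6.65, 9.68 and 9.56 TPM in CT.

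Keratins moved in opposite directions. KRT18, a keratin of simple epithelia that some endothelial cells also make, had 2871, 2636 and 3813 TPM in PF9363, 744, 810.4 and 811 TPM in OSM and 1039, 761 and 843 TPM in CT (log2 change 1.81, adjusted p = 2.2e-06), whereas KRT19 fell to 0.846 ± 0.267 TPM in PF9363, against 5.60 ± 1.05 TPM in CT (SD, n = 3 each). Of 7 tested epithelial markers 3 were higher and 3 lower (median -0.40, corrected 0.03), and ESRP1 and GRHL2 were at 0 in both groups. Of the 7 tested fibroblast and mural markers 3 were higher and 3 lower (median -0.14, corrected 0.03). THY1, a surface glycoprotein of fibroblasts and activated endothelium, had 15.4, 15.4 and 17.1 TPM in PF9363 and 2.66, 3.13 and 2.75 TPM in CT. The part of other cells in these values was not tested.

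Of 22 tested p53 target genes 6 were higher and 7 lower (median 0.03, corrected 0.11). FAS, a death receptor, had 19.6, 16.9 and 12.9 TPM in PF9363 and 1.31, 2.91 and 3.14 TPM in CT (log2 change 2.37, adjusted p = 7.79e-06), while PHLDA3, an inhibitor of AKT, fell by 1.38. Of 26 tested cholesterol synthesis genes 9 were higher and 12 lower (median -0.10). The early pathway kinases MVK and PMVK fell by 1.26 and 1.37. Of 15 mitochondrially encoded genes 7 were higher and 1 lower (median 0.26, corrected 0.12). The ribosomal RNA MT-RNR2 had 35626, 33866 and 31247 TPM in PF9363, 15813, 16039 and 15971 TPM in OSM and 11796, 12561 and 13518 TPM in CT, a change of 1.41, or 0.91 corrected.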
